A study of Mus musculus with 16 samples.

Results

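Peroxiredoxins, thioredoxin and superoxide dismutases are enzymes that remove superoxide and peroxides, and 10 of their genes were followed here through meiotic maturation of the mouse oocyte. The members are Prdx1 to Prdx6, Txn1, Txnrd1, Sod1 and Sod2, chosen by gene name from a table of 28618 entries for 27987 gene names, and each has 1 entry. The study asked what happens to oocytes when the α4 subunit of the 20S proteasome, encoded by Psma7, is deleted. Wildtype (WT) females were compared with oocyte-specific Psma7 conditional knockout females (Zp3-Cre; Psma7 flox/flox, Psma7 cKO). The Zp3 promoter drives CRE in growing oocytes, so the other cells of these females keep the gene. All females were 3 to 4 weeks old and had received 5 IU PMSG. GV oocytes, arrested before the first meiotic division, were collected 44 h later, and MII eggs were taken from the oviducts 14 to 16 h after hCG and digested with 0.3% hyaluronidase. There were 4 libraries of each genotype at each stage, 16 in all, each from a pool of 5 oocytes by the sample labels. MII is the stage that the labels give. The paper reports that some ovulated Psma7 cKO oocytes stayed at the GV stage or did not complete the first meiotic division. Whether the egg pools held such cells is not known here.

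Superoxide dismutases turn superoxide into hydrogen peroxide, and peroxiredoxins reduce that peroxide through a reactive cysteine. Most peroxiredoxins are returned to their reduced form by thioredoxin, which thioredoxin reductase recharges with electrons from NADPH. Transcription is silent in the full-grown oocyte, so messages made during growth are stored, translated and degraded on a schedule until the embryonic genome is activated. The redox enzymes of the egg are therefore supplied by maternal messages, in a cell rich in mitochondria.

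Values are FPKM, fragments per kilobase of transcript and per M mapped fragments, so that levels of different genes can be set side by side within a library. FPKM is a share of a library and not an amount per cell, and a lower share of a message in a pool cannot be told apart as fewer cells holding it or less of it per cell. The estimated depth was 10.6 to 15.7 M fragments per library (median 13.7 M). In GV oocytes Psma7 was at 165 ± 25.3 FPKM with the gene intact and at 14.6 ± 2.82 FPKM after its deletion (limma adjusted p = 8.98e-07), and in eggs at 126 ± 32.1 and 39.7 ± 20.2 FPKM (mean ± SD, n = 4 each; adjusted p = 0.0359), lower in the libraries labelled cKO at both stages. Among the cKO egg libraries Psma7 ranged from 13.6 to 59.9 FPKM. From GV oocytes to eggs it rose in cKO (limma log2 fold change 1.27, adjusted p = 0.0188) and fell in WT (-0.41, adjusted p = 0.0407). The test of the difference between these changes did not pass (limma adjusted p = 0.0847). Each of 10 oocyte markers exceeded 1 FPKM in every group. Of 15 cumulus and granulosa markers in the table, 11 (among them Amh, Fshr, Inha and Lhcgr) were below 1 FPKM in every library, and the 15 together summed to 17.9 to 24.1 FPKM per library. Of the 4 above it, Cyp19a1 had the highest group mean at 13.7 FPKM.

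Prdx1 and Prdx2, the cytosolic peroxiredoxins with a pair of catalytic cysteines, stood far above the other 8 genes. Prdx1 lies on chromosome 4 from 116685544 to 116700822 on the plus strand and Prdx2 on chromosome 8 from 84969587 to 84974834 on the plus strand (GENCODE release M21, build GRCm38, used for all positions here). In WT GV oocytes Prdx1 had 1013, 959, 1288 and 1005 FPKM in replicates 1 to 4, which placed its mean at rank 47 of all entries. Prdx2 had 634, 591, 837 and 715 FPKM in the same libraries. The values of Prdx1 and Prdx2 did not overlap, and those of Prdx2 lay well above the next member, Prdx5, at 78.0 ± 9.37 FPKM (mean ± SD, n = 4).

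The remaining members in WT GV oocytes followed in the order Txnrd1 (45.6 ± 8.01 FPKM), Sod1 (32.4 ± 6.10), Txn1 (27.4 ± 6.08), Sod2 (20.9 ± 1.88), Prdx3 (13.8 ± 2.67), Prdx6 (6.95 ± 1.71) and Prdx4 (2.68 ± 0.309 FPKM). Across libraries the values of Txnrd1 and Sod1, of Sod1 and Txn1, and of Txn1 and Sod2 overlapped. Within each WT GV library Sod1 was still above Txn1, and Txn1 above Sod2. Txnrd1 was below Sod1 in replicate 3 (33.8 and 37.0 FPKM) and above it in the others. The order of the 10 means was the same in Psma7 cKO GV oocytes. Prdx1 made up 53.6 ± 1.48% of the summed FPKM of the 10 genes in WT GV oocytes and 80.7 ± 0.674% in WT eggs, and the 10 genes together rose from 0.490 ± 0.0520% to 0.758 ± 0.0166% of a library's summed FPKM (mean ± SD, n = 4). Without Prdx1 and Prdx2 the sum went from 228 ± 18.1 to 100.4 ± 9.95 FPKM.

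**Figure D1:**
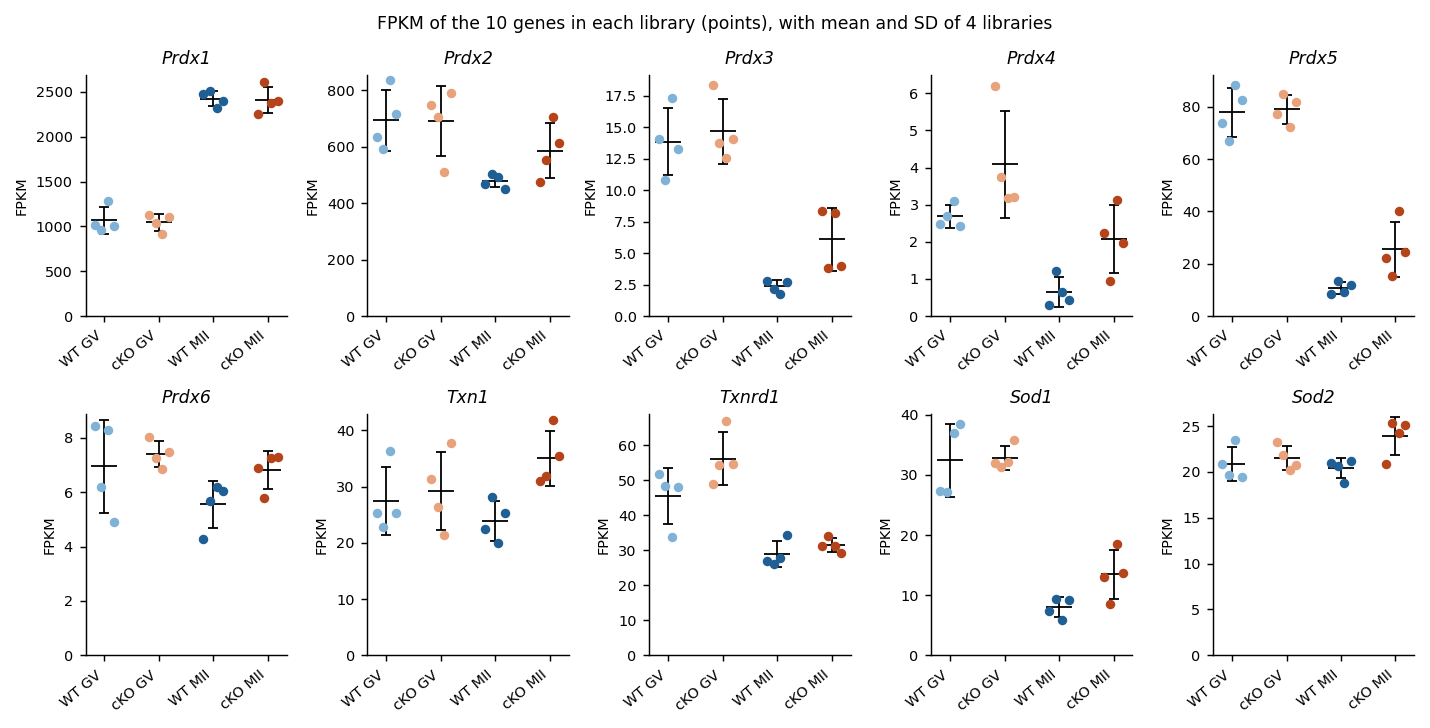
FPKM (linear axes from 0) of each of the 10 genes by genotype and stage; points are libraries, bars are the mean and SD of 4. Prdx1 is at 2251 FPKM or more in all 8 egg libraries and at 1288 or less in all 8 GV libraries, whereas Prdx3, Prdx5 and Sod1 are lower in every egg library than in any GV library of either genotype.

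The question of the WT comparison between stages was how each message's share of a library changes during maturation. Libraries were primed with oligo-dT, which takes polyadenylated RNA. A change in poly(A) tail length therefore cannot be told apart here from a change in the amount of a message. Prdx1 rose, 6 members fell and 3 did not pass the test, in a background of 26.1% of the 10475 transcripts tested called higher and 52.4% called lower (limma on log2 FPKM, values under 1 set to 1, Benjamini-Hochberg adjusted p under 0.05). The share of members called lower was 60%, near that background. Without overlap between stages, 1 member was higher and 5 lower, against 23.9% and 48.7% of transcripts. The median log2 fold change was -0.59 over the members and -0.44 over all transcripts tested. That shift of the whole table went to -0.016 once each library was divided by its median ratio over expressed transcripts (rescaling), and in Psma7 cKO it went from -0.42 to -0.062, so changes smaller than about the shift depend on the scaling. With rescaling the calls over all transcripts were 4084 higher and 4307 lower in place of 2738 and 5486.

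Among the cytosolic peroxiredoxins, Prdx1 had 2475, 2505, 2317 and 2396 FPKM in WT eggs, all above the highest GV library. Its log2 fold change was 1.19 (SE 0.10, adjusted p = 9.90e-07), larger than that of 95.5% of transcripts tested, and its mean moved to rank 19. Prdx2 had 469.8, 504, 492 and 452 FPKM, each below the lowest WT GV library at 591 FPKM, and fell by 0.52 on the log2 scale (SE 0.11, adjusted p = 0.000989). The Prdx2 call was lost with rescaling (log2 fold change -0.11, adjusted p = 0.437). The ratio of Prdx1 to Prdx2 went from 1.54 ± 0.0969 in GV oocytes to 5.06 ± 0.279 in eggs, and this ratio within a library does not depend on scaling.

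Prdx5 and Prdx3 had the lowest log2 fold changes of the 10 genes. Prdx5, which encodes an enzyme found in mitochondria, peroxisomes and cytosol (chromosome 19, 6906697 to 6910106, minus strand), had 74.0, 67.1, 88.4 and 82.6 FPKM in WT GV oocytes. In WT eggs it had 8.46, 13.2, 9.24 and 11.8 FPKM, a log2 fold change of -2.88 (SE 0.15, adjusted p = 2.35e-08) all below every GV library. Prdx3, the mitochondrial peroxiredoxin (chromosome 19, 60864051 to 60874556, minus strand), went from 14.0, 10.8, 17.3 and 13.2 to 2.74, 2.18, 1.79 and 2.73 FPKM (log2 fold change -2.55, SE 0.18, adjusted p = 2.71e-07). Both were clear of overlap, and eggs held 13.7 ± 2.84% of the GV mean of Prdx5 and 17.0 ± 3.34% of that of Prdx3. Prdx4, of the endoplasmic reticulum (chromosome X, 155323918 to 155340754, minus strand), was the lowest member throughout, at 2.47, 2.71, 3.11 and 2.44 FPKM in WT GV oocytes and 0.284, 1.20, 0.638 and 0.426 FPKM in WT eggs. It fell by 1.35 on the log2 scale (SE 0.13, adjusted p = 3.84e-06), a value that the floor of 1 FPKM keeps small, since 3 of the 4 egg values lie under it, and the 4 values correspond to about 3.50 to 17.5 fragments per egg library. Prdx6, with a single catalytic cysteine (chromosome 1, 161240112 to 161251219, minus strand), ranged from 4.90 to 8.44 FPKM in WT GV oocytes and from 4.29 to 6.17 FPKM in eggs, overlapped, and did not pass (log2 fold change -0.31, adjusted p = 0.169). Without WT GV replicate 4 it passed as lower (adjusted p = 0.0366), and with rescaling its sign turned (0.11).

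Of the thioredoxin pair, Txn1 (chromosome 4, 57943373 to 57956411, minus strand), the cytosolic thioredoxin, had 22.7 to 36.4 FPKM in WT GV oocytes and 20.0 to 28.2 FPKM in WT eggs. It did not pass (log2 fold change -0.18, SE 0.16, adjusted p = 0.294), and its sign turned with rescaling (0.23). Txnrd1, the selenocysteine enzyme that reduces it (chromosome 10, 82833951 to 82897712, plus strand), had 51.9, 48.4, 33.8 and 48.1 FPKM in GV oocytes and 27.1, 26.1, 27.9 and 34.4 FPKM in eggs. It fell by 0.65 on the log2 scale (SE 0.14, adjusted p = 0.00154), although GV replicate 3 overlapped egg replicate 4 and the call was lost with rescaling (-0.23, adjusted p = 0.130).

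The dismutases parted. Sod1, the copper and zinc enzyme of the cytosol (chromosome 16, 90220754 to 90226329, plus strand), went from 27.3, 27.1, 37.0 and 38.4 FPKM to 7.36, 9.40, 5.93 and 9.25 FPKM, without overlap (log2 fold change -2.03, SE 0.18, adjusted p = 1.30e-06). Sod2, the manganese enzyme of mitochondria (chromosome 17, 13006846 to 13040063, plus strand), had 20.9, 19.7, 23.5 and 19.4 FPKM in GV oocytes and 21.0, 20.7, 18.8 and 21.2 FPKM in eggs. Its log2 fold change was -0.028 with a 95% interval of -0.23 to 0.18 (adjusted p = 0.792), and rescaling made it a rise of 0.39 (adjusted p = 0.00563). Sod2 thus did not pass as a share of the library and passed as higher relative to the median transcript, while Prdx3 and Prdx5, other genes with products in the same organelle, fell under both scalings. The WT maturation calls of Prdx1, Prdx3, Prdx4, Prdx5 and Sod1 held in all 8 fits that each left out 1 library and with rescaling.

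**Figure D2:**
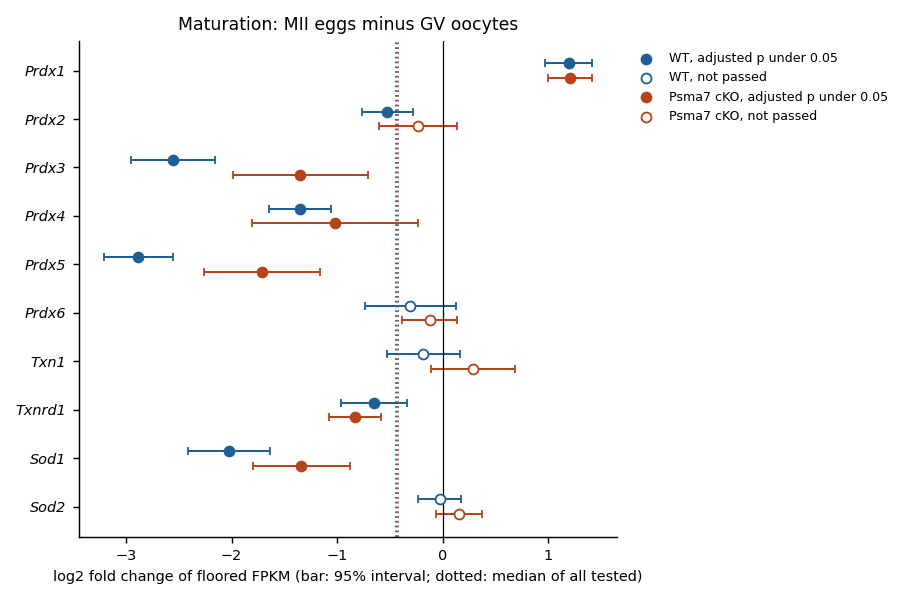
Log2 fold change of floored FPKM from GV oocytes to MII eggs in WT and Psma7 cKO, with 95% intervals; filled points passed an adjusted p under 0.05, and dotted lines mark the median of all transcripts tested. Prdx1 is alone on the right at 1.19 and 1.21, and the intervals of Prdx3 and of Prdx5 lie further left in WT than in Psma7 cKO.

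Between the stages in Psma7 cKO, 1 member rose and 5 fell (background 23% and 51% of 10748 tested), and the fitted falls of Prdx3, Prdx5, Sod1 and Prdx4 were smaller than in WT while that of Txnrd1 was larger. The test of these differences is the interaction given after the genotype comparisons. Prdx1 had 1124, 1034, 914 and 1101 FPKM in GV oocytes and 2251, 2608, 2379.9 and 2397 FPKM in eggs (log2 fold change 1.21, SE 0.09, adjusted p = 5.06e-06). Prdx5 fell by 1.71 (adjusted p = 0.000182), Prdx3 by 1.35 (adjusted p = 0.00191), Sod1 by 1.34 (adjusted p = 0.000271), Prdx4 by 1.02 (adjusted p = 0.0240) and Txnrd1 by 0.83 (adjusted p = 0.000106) on the log2 scale. The Prdx4 call was lost without cKO GV replicate 1 (adjusted p = 0.0692) and with rescaling (adjusted p = 0.0873). Prdx2 (-0.23), Prdx6 (-0.12), Txn1 (0.29) and Sod2 (0.15) did not pass. With rescaling Txn1 (0.64, adjusted p = 0.00627) and Sod2 (0.51, adjusted p = 0.00258) passed as higher, and Prdx2 (0.13) and Prdx6 (0.24) turned sign. Prdx2 passed as lower without cKO GV replicate 3 (adjusted p = 0.0386), and Txn1 as higher without cKO GV replicate 4 (adjusted p = 0.0449).

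The genotype comparison in GV oocytes asked whether loss of Psma7 alters the stored messages before maturation. With limma, 0 of the 10 members passed in either direction, beside 0.0994% of 11062 transcripts called higher and 0.0181% called lower, and 1 member had an unadjusted p under 0.05, higher in Psma7 cKO like 7.62% of transcripts. That was Prdx4, at 6.21, 3.74, 3.19 and 3.20 FPKM in Psma7 cKO against 2.44 to 3.11 FPKM in WT (log2 fold change 0.56, SE 0.21, unadjusted p = 0.0254, adjusted p = 0.383). It was also the 1 member whose genotypes did not overlap, as in 4.25% of transcripts in this direction, although the lowest Psma7 cKO value exceeded the highest WT value by a small margin and replicate 1 stood well above the other 3. The next in size was Txnrd1, with 48.9, 54.3, 66.9 and 54.7 FPKM in Psma7 cKO (log2 fold change 0.31, SE 0.14, adjusted p = 0.485). The other 8 had log2 fold changes from -0.026 to 0.12. Their 95% intervals set how large a change could have been missed, from -0.28 to 0.22 for Prdx1, -0.20 to 0.25 for Prdx5 and -0.17 to 0.26 for Sod2, and from -0.33 to 0.50 for Txn1.

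Among GV oocytes, 1 library of each genotype lay at an end of its group's range for most members. WT GV replicate 3 held the highest of the 4 WT values for 7 of the 10 genes and the lowest for Txnrd1. Psma7 cKO GV replicate 3 held the lowest of its group for 8 genes and the highest for Txnrd1. These libraries were not the shallowest of their groups, with estimated depths of 13.9 M and 15.7 M fragments, and their summed FPKM was the highest (421173) and the lowest (394685) of their groups. The part of summed FPKM in this order was not tested. Some margins were small, as for Prdx4 at 3.19 FPKM in Psma7 cKO GV replicate 3 against 3.20 FPKM in replicate 4. How often other transcripts put these libraries at an end was not counted.

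In eggs, 3 of the 10 members were higher in Psma7 cKO and 0 were lower, where 6.53% of 9492 transcripts were called higher and 1.49% lower (516 and 292 transcripts with rescaling in place of 620 and 141). With limma, 7 members had an unadjusted p under 0.05, all of them higher (20.6% of all transcripts in that direction), and 9 of the 10 had a positive log2 fold change. The median was 0.43 over the members and 0.07 over all transcripts tested. The 3 that passed were Prdx3, Prdx5 and Txn1, and for each of them all 4 Psma7 cKO egg libraries exceeded all 4 WT egg libraries, as was the case for 13.6% of transcripts in this direction.

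Prdx3 had 8.34, 3.85, 8.18 and 4.00 FPKM in Psma7 cKO eggs against 1.79 to 2.74 FPKM in WT eggs, with replicates 1 and 3 high (log2 fold change 1.29, SE 0.30, limma adjusted p = 0.0369). Prdx5 had 22.1, 15.5, 40.2 and 24.5 FPKM against 8.46 to 13.2 FPKM, with replicate 3 highest and replicate 2 close to WT (1.20, SE 0.27, adjusted p = 0.0352). Txn1 had 31.0, 31.9, 41.9 and 35.5 FPKM against 20.0 to 28.2 FPKM (0.55, SE 0.13, adjusted p = 0.0397). All 3 lie near the threshold. Leaving out any 1 of the 4 WT egg libraries, or cKO MII replicate 1, ended all 3 calls, those of Prdx3 and Txn1 also ended without cKO MII replicate 3, and those of Prdx5 and Txn1 without cKO MII replicate 4. Over the 8 fits that left out 1 library, adjusted p ran from 0.0185 to 0.0947 for Prdx3, 0.0116 to 0.105 for Prdx5 and 0.0349 to 0.114 for Txn1, with log2 fold changes of at least 1.11, 0.95 and 0.46. Testing all entries without a filter on low values ended all 3 calls (adjusted p = 0.0549, 0.0524 and 0.0549), and Txn1 was also lost with rescaling (0.0557) and without the intensity trend (0.0554).

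Sod1 (13.0, 8.58, 18.6 and 13.6 FPKM in Psma7 cKO eggs) and Prdx4 (2.25, 0.935, 3.13 and 1.98 FPKM) had log2 fold changes of 0.72 and 0.88 and did not pass (adjusted p = 0.0857 and 0.0983). In both, replicate 2 lay within the WT range and the other 3 above it, and without cKO MII replicate 2 both passed (adjusted p = 0.0245 and 0.0107). Sod2 (0.23, adjusted p = 0.123), Prdx2 (0.28, adjusted p = 0.141), Prdx6 (0.30, adjusted p = 0.196) and Txnrd1 (0.13, adjusted p = 0.413) did not pass. Prdx1, the most abundant, had a log2 fold change of -0.0098 with a 95% interval of -0.17 to 0.15 (adjusted p = 0.938). It made up 76.8 ± 2.89% of the members' summed FPKM in Psma7 cKO eggs, against 80.7 ± 0.674% in WT eggs. At the fold the study uses for changed transcripts, taken here as a ratio over 3 between group means after values under 1 FPKM were set to 1, 0 of the 10 members counted in GV oocytes or in eggs, and the highest ratio in eggs was 2.58 for Prdx3, followed by 2.39 for Prdx5. Prdx4 has egg values under 1 FPKM in both genotypes. With a floor of 0.1 FPKM it was the 1 member over 3-fold higher in eggs (limma log2 fold change 1.78, adjusted p = 0.0568). The share of all transcripts past this ratio was not counted here, so these counts are not read as a result about the members.

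**Figure D3:**
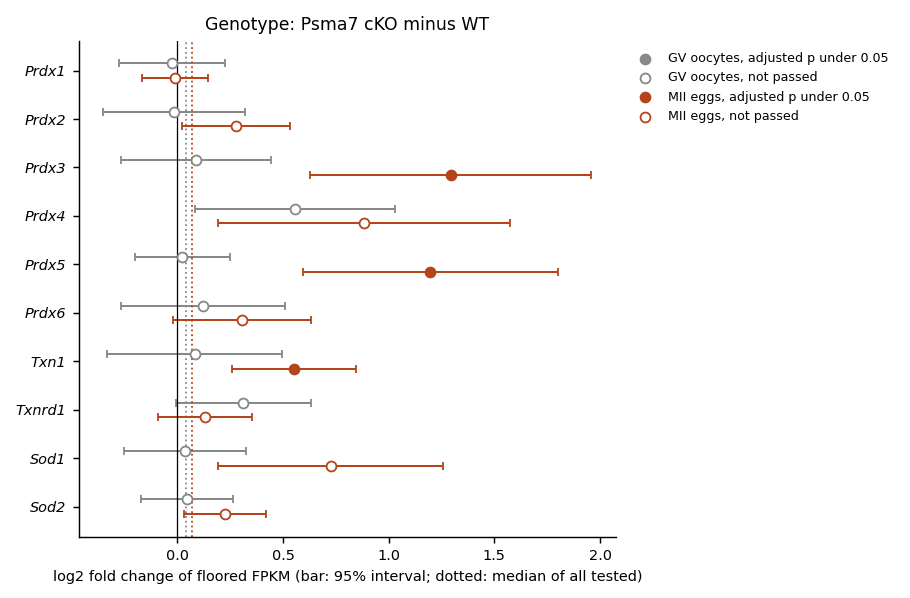
Log2 fold change of floored FPKM, Psma7 cKO minus WT, in GV oocytes and MII eggs, with 95% intervals; filled points passed an adjusted p under 0.05 and dotted lines mark the median of all transcripts tested. In eggs Prdx3, Prdx5 and Txn1 are filled at 1.29, 1.20 and 0.55, and in GV oocytes no point is filled.

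Whether the genotype difference itself differed between eggs and GV oocytes was tested with an interaction term on all 16 libraries. With limma, 0 of the 10 members passed in either direction (background 1.07% higher and 0.188% lower of 10615), and 3 had an unadjusted p under 0.05, beside 12.7% of all transcripts in that direction. These were Prdx5 (difference of log2 fold changes 1.17, adjusted p = 0.0637), Prdx3 (1.21, adjusted p = 0.0936) and Sod1 (0.69, adjusted p = 0.217). Without cKO MII replicate 2 all 3 passed (the adjusted p of Prdx5 was then 0.00680, of Prdx3 0.0242 and of Sod1 0.0421). Txn1 (0.47, adjusted p = 0.350) did not pass. The egg difference in these genes is thus not shown to differ from the GV difference with all libraries kept, and the same WT and Psma7 cKO libraries stand behind the stage and the genotype comparisons.

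The Psma7 cKO eggs differed among themselves. As a measure of how far each egg library had moved from the GV state, 397 transcripts that fell more than 10-fold in WT maturation were summed. None of the 10 members is among them, since the largest ratio of floored means was 7.31 for Prdx5. WT eggs held 5.93, 6.80, 6.22 and 6.05% of the GV sum, low values that the choice of these transcripts fixes. Psma7 cKO eggs held 12.7, 8.80, 34.5 and 19.0%, highest in replicate 3 and lowest in replicate 2. Of the members that fell in Psma7 cKO maturation, 3 were also highest in replicate 3 and lowest in replicate 2. Prdx5 was at 50.8% of its GV mean in cKO egg replicate 3 and at 19.6% in replicate 2, Sod1 at 56.6% and 26.1%, and Prdx4 at 76.7% and 22.9%. Prdx3 kept a different order, since replicate 1 (56.9%) was as high as replicate 3 (55.8%). Txnrd1 went another way, at 55.3, 60.6, 55.7 and 52.0% of its GV mean in replicates 1 to 4, with replicate 2 highest. Over all 10 genes, replicate 3 held the highest of the 4 values for 5 and the lowest for 0. Replicate 2 held the lowest for 5 and the highest for 3, and replicate 1 the lowest for 4. The share of all transcripts with these egg libraries at an end was not counted. These counts are therefore not read as a result about the members. The part of this spread in the genotype differences of the members was not tested, nor was the stage of the cells in a pool. The values of each library left out are given with the calls.

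**Figure D4:**
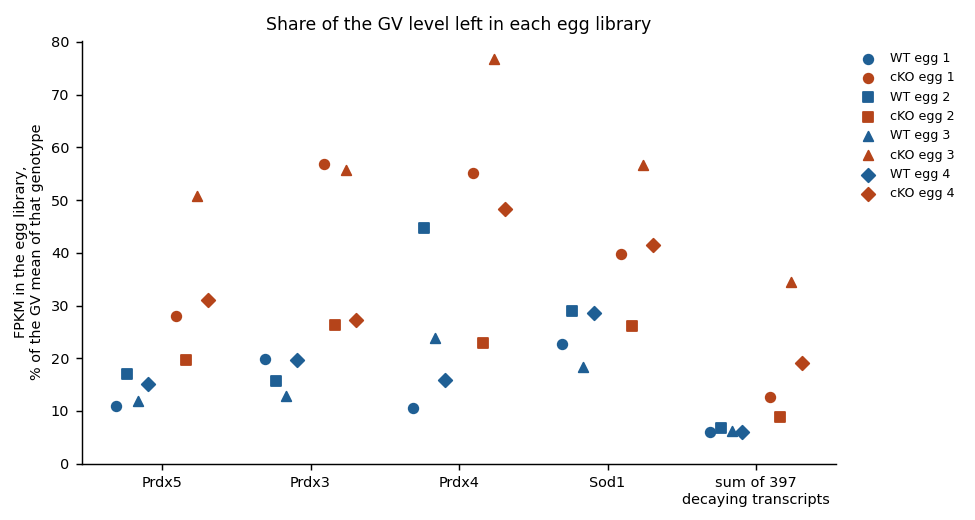
FPKM in each egg library as a percentage of the GV mean of its own genotype, for Prdx5, Prdx3, Prdx4, Sod1 and the sum of 397 transcripts chosen for a fall over 10-fold in WT. Colours are genotypes and symbols are replicate numbers, which the labels do not say pair libraries. Psma7 cKO egg replicate 3 is the highest point for Prdx5, Prdx4, Sod1 and the 397 transcripts.

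In terms of order, the 2 stages differ below the leading pair. In WT eggs Txnrd1 (28.9 ± 3.76 FPKM), Txn1 (24.0 ± 3.54) and Sod2 (20.4 ± 1.12) came next after Prdx2, with neighbouring values that overlapped, and Prdx5, which followed Prdx2 in GV oocytes, dropped to 10.7 ± 2.21 FPKM. Sod1 (7.98 ± 1.65), Prdx6 (5.55 ± 0.862), Prdx3 (2.36 ± 0.463) and Prdx4 (0.637 ± 0.403 FPKM) followed. In Psma7 cKO eggs Txn1 (35.1 ± 4.92 FPKM) stood above Txnrd1 (31.4 ± 2.00) and Prdx5 (25.6 ± 10.5) above Sod2 (23.9 ± 2.05), although the values of both pairs overlapped.

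The promoters of the members were searched for the letters TGACNNNGC on both strands, the core of the antioxidant response element that the Nrf2 factor binds with a small Maf protein, because several of these genes are known targets of that factor. RefSeq promoter sequences (250 bases before to 50 after the start, build GRCm38.p6) were matched by symbol for 9 of the 10 genes, Prdx6 being the other, and 3 of the 9 held the letters, against 14.0% of 27025 gene symbols. The 250 bases before the start are shown for these 3, on the plus strand of each chromosome, with the match, which is read on the opposite strand, in capitals. It begins 133 bases before the start in Prdx1, 92 in the second of 3 Txnrd1 promoters and 56 in Sod1. A match is a description of letters, and it is shared by a gene that rose in maturation (Prdx1) and by a pair that fell (Txnrd1 and Sod1).
Prdx1, chr4:116685349-116685598: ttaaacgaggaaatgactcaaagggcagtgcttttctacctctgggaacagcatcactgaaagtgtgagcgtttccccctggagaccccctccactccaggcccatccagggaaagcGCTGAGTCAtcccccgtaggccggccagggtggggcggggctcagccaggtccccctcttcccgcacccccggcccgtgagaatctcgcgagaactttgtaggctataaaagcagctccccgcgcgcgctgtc
Txnrd1, chr10:82858956-82859205: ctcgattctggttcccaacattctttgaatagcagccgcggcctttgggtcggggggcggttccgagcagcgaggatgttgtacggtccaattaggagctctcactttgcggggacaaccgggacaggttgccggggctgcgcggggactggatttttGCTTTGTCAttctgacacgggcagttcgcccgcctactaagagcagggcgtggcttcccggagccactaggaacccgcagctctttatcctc
Sod1, chr16:90220512-90220761: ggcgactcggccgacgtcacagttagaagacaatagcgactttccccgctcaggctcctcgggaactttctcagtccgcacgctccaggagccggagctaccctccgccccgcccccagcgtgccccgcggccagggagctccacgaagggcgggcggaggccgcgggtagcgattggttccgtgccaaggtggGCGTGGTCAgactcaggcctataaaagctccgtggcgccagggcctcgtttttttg

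The last 100 bases of the annotated messages were also searched, on the sense strand, for the letters TTTTAT and TTTTAAT of cytoplasmic polyadenylation elements, which control tail length in the maturing oocyte, and for the polyadenylation signal AATAAA. These searches were added after the values were seen. TTTTAT was found in 1 of the 10 genes (16.9% of 21745 protein-coding genes), TTTTAAT in 0 of 10 (6.27%) and AATAAA in 8 (67.3%). The 1 gene was Txnrd1, and the 30 bases around its match, with TTTTAT in capitals 56 bases from the annotated end, are shown because Txnrd1 fell in both genotypes. Some of the members have more than 1 annotated end, and the end used in oocytes was not analysed here.
Txnrd1, chr10:82897645-82897674, plus strand: aattccatgtatTTTTATtacaatttttct

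Partners of these enzymes were taken from 4 lists of 72 genes, of which 71 are in the table. In GV oocytes 0 of the 51 tested with limma passed in either direction, beside 0.0994% of all transcripts called higher and 0.0181% lower. At an unadjusted p under 0.05 there were 2, both higher, beside 7.62% of all transcripts higher and 3.06% lower. In eggs 6 of 44 were higher in Psma7 cKO and 0 lower, and at an unadjusted p under 0.05 limma gave 15 and 4. Over all transcripts tested these shares were 6.53% and 1.49%, and 20.6% and 8.8% unadjusted. Txn2, the mitochondrial thioredoxin that serves PRDX3 and PRDX5, was at 62.8 ± 5.05 FPKM in WT eggs against 91.4 ± 9.72 FPKM (log2 fold change 0.54, adjusted p = 0.0216). Txnl1, a thioredoxin-like protein that associates with the proteasome, ranged from 25.7 to 30.5 FPKM in WT and from 31.2 to 39.5 FPKM in Psma7 cKO eggs (0.40, adjusted p = 0.0396). Ccs, the copper chaperone that loads SOD1, had 0.691 ± 0.448 and 2.79 ± 1.44 FPKM (1.24, adjusted p = 0.0491). The others were Gpx4, a glutathione peroxidase that reduces lipid peroxides (1.12 ± 0.271 and 4.08 ± 2.85 FPKM, adjusted p = 0.0458), Gstk1, a glutathione transferase (3.52 ± 0.532 and 8.24 ± 1.92 FPKM, adjusted p = 0.0206), and Fth1, the ferritin heavy chain (8.58 ± 2.11 and 34.2 ± 22.9 FPKM, adjusted p = 0.0407). By list, 3 of 11 thiol and peroxide partners, 2 of 13 glutathione and NADPH genes, 1 of 14 Nrf2 regulators and targets and 0 of 6 selenocysteine insertion genes were higher. The total of 6 was between 0 and 9 when each egg library was left out.

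In WT maturation 28 of the 48 partners tested fell and 11 rose, with a median log2 fold change of -0.80, beside 52.4% lower, 26.1% higher and a median of -0.44 over all transcripts tested, so that the counts are near the background. Thiol and peroxide partners gave 11 lower and 2 higher of 14, with Ccs (-3.13) and Glrx5, a mitochondrial glutaredoxin (-3.03), at the bottom and Txndc17 (0.78) and Msrb3 (0.46) at the top. Glutathione and NADPH genes gave 6 lower and 3 higher of 13, from Gpx4 (-3.67) and Gsta4 (-3.54) to Slc7a11, the cystine transporter (0.38), and Mgst3, a microsomal glutathione transferase (1.52). Nrf2 regulators and targets gave 8 lower and 4 higher of 15, from Osgin1 (-4.26) and Fth1 (-3.76) to Nqo1 (0.45) and Taldo1 (0.51). Of 6 selenocysteine insertion genes, which serve the selenocysteine of TXNRD1, 3 fell, with Eefsec (-3.45) and Pstk (-3.03) lowest, and Sepsecs (0.40) and Sephs2 (0.38) rose. With rescaling 19 partners in place of 11 passed as higher. In Psma7 cKO maturation 27 of 50 fell and 6 rose (51% and 23% of all transcripts). In the interaction 0 of 50 passed with limma in either direction, where 1.07% of all transcripts were higher and 0.188% lower. At an unadjusted p under 0.05, 11 were higher and 1 lower, beside 12.7% and 5.03% of all transcripts.

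**Figure D5:**
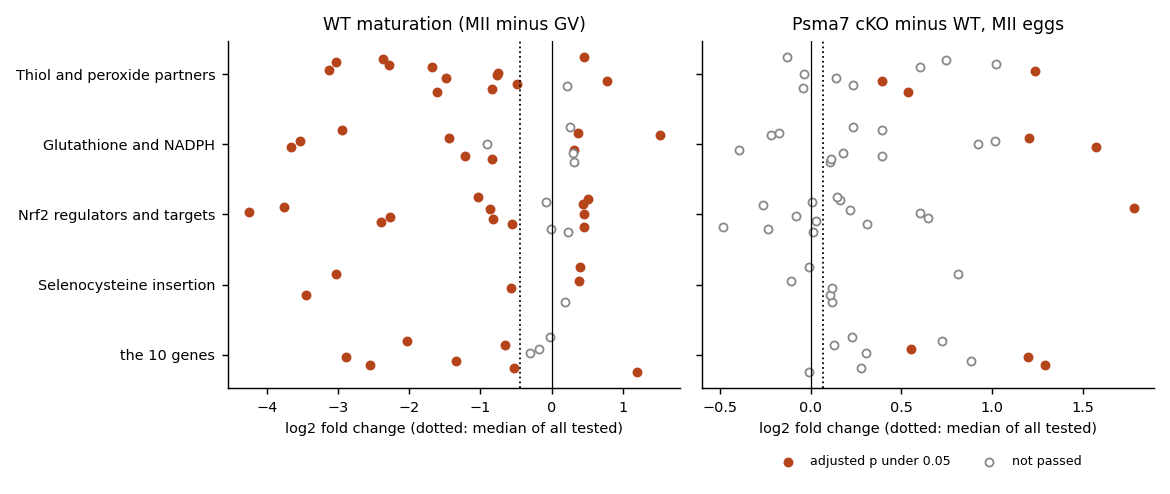
Log2 fold change of each tested gene of the 4 partner lists and of the 10 genes, in WT maturation (left) and between genotypes in eggs (right); filled points passed an adjusted p under 0.05 and dotted lines mark the median of all transcripts tested. Most filled points at left lie below 0, down to -4.26 for Osgin1, and all filled points at right lie above 0.

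Over the 16 libraries, the transcripts most like Prdx1, by Pearson's r of log2 floored FPKM, were Orc6 (r = 0.997), 2810408I11Rik (0.997) and Magoh (0.996). Those most like Prdx5, the member that fell most in WT, were Atp5o, Snapc5 and Chchd6 (each r = 0.995). These libraries share the difference between stages, and after the mean of each stage was taken out the values were 0.911, 0.892 and 0.884 for the first 3 and 0.972, 0.976 and 0.971 for the others. Atp5o had group means of 131 FPKM in WT GV oocytes, of 6.93 in WT eggs, and of 25.6 when Psma7 was deleted.

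Of annotated copies of the members, Prdx6-ps2, a processed pseudogene, is listed with 1.25 ± 0.631 FPKM (WT) and 1.19 ± 0.381 FPKM (cKO) in GV oocytes and with 2.27 ± 0.503 and 1.85 ± 0.313 FPKM in eggs. Reads of Prdx6 could be split with it, so the level of Prdx6 is uncertain to that extent. Prdx6b, Prdx2-rs3 and Txn-ps1 have no entry under these names among the deposited values, so their levels are not known here.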

How the data were processed

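RNA-seq of 16 pools of mouse oocytes, 4 WT and 4 Psma7 cKO at the GV and at the MII stage, was used. ERCC RNA was spiked in at lysis and Smart-seq2 libraries were primed with oligo-dT, which takes polyadenylated RNA, and the submitters' processing notes name TopHat2 2.1.1, Cufflinks 2.2.1 and mm10. The gene annotation is not given in the sources used here. The values are FPKM as the authors deposited them, 1 column per library matched by name, with 0 ERCC rows. The pool is 5 cells by the labels and 10 by the methods. Depth was estimated from the steps between FPKM values below 0.6.

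Values below 1 FPKM were set to 1, as in the study, and log2 values were fitted with limma 3.58.1 (R 4.3.3, empirical Bayes with a trend) for entries averaging 1 FPKM or more in the libraries of a comparison. Calls needed a Benjamini-Hochberg adjusted p under 0.05 over all entries tested, and fold changes of low genes are understated by the floor. Each comparison used its own 8 libraries, the interaction all 16. The labels call libraries biological replicates but do not say which animals entered a pool. Other floors, filters, scalings, fits and each library left out were tried. Positions came from GENCODE release M21, promoters from RefSeq, and figures from Python 3.11.15. Scripts were tested on simulated data. Named genes are all members, partners that passed between genotypes, the 2 highest and 2 lowest per list in WT maturation, Psma7, copies over 1 FPKM, and the 3 transcripts most like the most abundant member and the one that changed most; Cyp19a1, and marker names given as examples, were chosen after values were seen. Members and lists were chosen with earlier results of these data known.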

Additional observations from a re-analysis of the deposited data

Results flagged for a closer look

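Prdx1 in WT GV replicate 3, at 1288 FPKM, lay apart from the other 3 WT GV libraries (959 to 1013 FPKM), its gap to the nearest being 0.834 of the group's whole range, just past the limit for sets of 4. It was the 1 such case in 40 sets of 4 libraries, where chance gives about 1 in 20.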

How the results depend on the processing

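Over the 5 comparisons, settings other than leaving a library out kept direction and side of the threshold in 409 of 434 single-gene values. Leaving a library out kept them in 428 of 480. Many of these values lie far from the threshold. The egg calls between genotypes passed in 6 of 8 settings for Prdx3, 7 of 9 for Prdx5 and 5 of 9 for Txn1. Members higher in Psma7 cKO eggs numbered 3 as reported, 0 with no filter or with a replicate block, and 5 with all 16 libraries in one fit, Prdx4 and Sod1 being added. Partners higher there were 1 with the block. The labels do not say whether libraries with the same replicate number belong together. The deviations of such libraries from their group means had correlations of -0.496 to 0.285, which cannot decide it. With the block, egg calls over all transcripts went from 620 higher and 141 lower to 101 and 7, and GV calls from 11 and 2 to 4 and 2.

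With libraries rescaled by the median ratio, egg calls went to 516 higher and 292 lower, GV calls to 4 and 2, WT maturation calls from 2738 higher and 5486 lower to 4084 and 4307, and Psma7 cKO maturation calls from 2472 and 5482 to 3676 and 4203. Members higher were then 2 in WT maturation and 3 in Psma7 cKO maturation, and partners higher 19 and 17, with 1 partner lower in Psma7 cKO eggs. Reversed log2 fold changes with rescaling were Prdx6 (0.11), Txn1 (0.23) and Sod2 (0.39) in WT maturation, Prdx2 (0.13) and Prdx6 (0.24) in Psma7 cKO maturation, Prdx5 (-0.028), Sod1 (-0.018) and Sod2 (-0.0062) between genotypes in GV oocytes, and Prdx1 (-0.041) in the interaction. With a mean of at least 5 FPKM 1 member, Prdx5, passed in the interaction (adjusted p = 0.0482).

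By the ratio of floored means, 1 member, Prdx4, was over 3-fold higher in Psma7 cKO eggs with a floor of 0.1 FPKM. With the floor of 1 FPKM, 2 were over 2-fold. At 2-fold in WT maturation 1 was higher and 4 were lower. The share of all transcripts past these ratios was not counted.

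With each library left out in turn, members higher in Psma7 cKO eggs numbered 0 to 5 (1 without cKO MII replicate 3), partners higher 0 to 9 and lower 0 to 1. Members higher in Psma7 cKO maturation numbered 1 to 2, members in the interaction 0 to 3 and partners 0 to 5. Signs turned for values near 0. Between genotypes in GV oocytes the ranges were -0.074 to 0.068 for Prdx1, -0.089 to 0.12 for Prdx2, -0.025 to 0.20 for Prdx3, -0.046 to 0.086 for Prdx5, -0.034 to 0.23 for Prdx6, -0.051 to 0.23 for Txn1 and -0.046 to 0.12 for Sod1. Prdx1 ranged from -0.049 to 0.022 in eggs and from -0.078 to 0.064 in the interaction, and Sod2 from -0.062 to 0.031 in WT maturation. The cause was not tested in any of these. Depth limits Prdx4 in WT eggs, and no share here is an amount per oocyte.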
